A study of Homo sapiens with 24 samples.

Results

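The genes that build cholesterol and fatty acids were followed in newly made RNA of U2OS cells, a human osteosarcoma line, over 3 h of dexamethasone, a synthetic glucocorticoid. The set held 31 genes chosen by name for their roles in these pathways, of 61533 genes in the deposited count table. All 31 were among the 23651 genes with enough counts to be tested. By role, 7 act in the early mevalonate and isoprenoid steps, 12 between squalene and cholesterol, 5 are regulators or sterol carriers, and 7 make, lengthen or desaturate fatty acids. At 3 h, averaged over the lines, 11 of the 31 had risen and 5 had fallen (35.5% and 16.1%). Of all genes tested, 20.9% rose and 19.3% fell. The changes of the members were below 1 on the log2 scale in either direction, and the counts depended on which 0 h libraries were used.

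Cholesterol and fatty acids are both built from acetyl-CoA, and both pathways answer to the SREBP transcription factors, encoded by SREBF1 and SREBF2. When membranes of the endoplasmic reticulum run short of sterol, SCAP escorts SREBP to the Golgi, where proteases free the part that enters the nucleus and binds sterol regulatory elements in the promoters of these genes. INSIG1 holds SCAP back when sterol is plentiful. SREBF2 is best known for the cholesterol genes and SREBF1 for the fatty acid genes, and SREBF1 is also a target of LXR, a nuclear receptor for oxidised sterols. Glucocorticoids are best known for their effect on lipid genes in liver and fat.

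New RNA was captured by 4sU-seq, in which cells take up 4-thiouridine (200 µM for the last 1 h of treatment, and for 1 h in the control dishes), and RNA that has incorporated it is pulled down and sequenced. The cells expressed the glucocorticoid receptor (GR, gene NR3C1) fused at its C terminus to HaloTag, a protein tag that can carry a dye. The wt line carried the normal receptor. The SoF line carried the K492A receptor, which in vitro binds RNA much less tightly and DNA somewhat less tightly. The Ctrl line carried the R470A receptor, which in vitro binds DNA less tightly but keeps its RNA binding. These affinities were measured on a part of the receptor, and the study did not test the loss of RNA binding in cells. Cells of the 3 lines were kept in charcoal-stripped serum and sampled in 0.01% ethanol (0 h) or after 1, 2 and 3 h with dexamethasone at 100 nM. This gave 12 combinations of line and time with 2 libraries for each, 24 in all. The receptor was integrated with a PiggyBac plasmid carrying the CMV promoter, and each line was 1 stable pool sorted by dye, so that construct and pool cannot be told apart. U2OS cells make little GR of their own. The medium was replaced when treatment began, and how long the ethanol dishes were kept is not stated, so time in dexamethasone and time in fresh medium cannot be told apart. The labels do not say whether the libraries of a group came from separate cultures, and p-values then measure only the spread between these libraries. By the study's methods, replicates were biotinylated and pulled down in pairs. If a pair is the 2 libraries of a group, pulldown and group cannot be told apart. Differences between pulldowns are then not in the spread that the p-values use. In bulk RNA, fewer cells making a transcript and less of it per cell cannot be told apart.

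SREBP is known to act through sterol regulatory elements, often beside the CCAAT box of its partner NF-Y, and 5 promoters are shown here, picked after the values were seen. SREBF2 holds the only exact element found, NSDHL and HMGCS1 had the largest rise and fall below, HSD17B7 fell although it works with NSDHL, and SREBF1 fell without overlap of its libraries. Each is the 200 bases before the RefSeq start of the gene on GRCh38.p14, in the direction of transcription. SREBF2 lies at chr22:41832905-41833104 on the plus strand, NSDHL at chrX:152830863-152831062 (plus), HMGCS1 at chr5:43313413-43313612 (minus), HSD17B7 at chr1:162790502-162790701 (plus) and SREBF1 at chr17:17836987-17837186 (minus). Capitals mark the CCAAT box (the letters bound by NF-Y), the sterol regulatory element TCACNCCAC with at most 1 of its 8 fixed letters changed, and the E-box CACGTG, on either strand.
SREBF2: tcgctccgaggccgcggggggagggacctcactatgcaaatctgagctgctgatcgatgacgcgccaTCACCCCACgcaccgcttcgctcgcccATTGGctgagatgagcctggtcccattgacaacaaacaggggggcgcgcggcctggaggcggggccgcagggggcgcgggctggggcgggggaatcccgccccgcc
NSDHL: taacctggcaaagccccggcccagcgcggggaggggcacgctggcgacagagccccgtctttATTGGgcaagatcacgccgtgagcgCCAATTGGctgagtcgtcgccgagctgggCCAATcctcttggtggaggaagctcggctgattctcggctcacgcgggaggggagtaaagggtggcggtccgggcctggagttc
HMGCS1: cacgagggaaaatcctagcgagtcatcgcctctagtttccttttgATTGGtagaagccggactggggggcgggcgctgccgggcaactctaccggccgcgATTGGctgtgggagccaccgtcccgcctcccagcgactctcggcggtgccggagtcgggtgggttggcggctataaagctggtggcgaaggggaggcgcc
HSD17B7: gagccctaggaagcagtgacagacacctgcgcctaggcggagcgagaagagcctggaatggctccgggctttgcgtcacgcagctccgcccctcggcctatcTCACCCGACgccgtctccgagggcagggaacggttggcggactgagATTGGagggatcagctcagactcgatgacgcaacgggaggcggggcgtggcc
SREBF1: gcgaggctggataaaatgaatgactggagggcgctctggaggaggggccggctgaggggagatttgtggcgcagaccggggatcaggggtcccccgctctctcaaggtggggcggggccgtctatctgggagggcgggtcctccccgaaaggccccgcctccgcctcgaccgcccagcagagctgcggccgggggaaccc
In the SREBF2 promoter an exact sterol regulatory element began 133 bases before the start, with a CCAAT box on the other strand 106 bases before it. NSDHL had 4 CCAAT boxes, of which the pair at 113 and 110 bases overlapped on opposite strands. HMGCS1 had CCAAT boxes at 155 and 100 bases, HSD17B7 had 1 altered element at 98 and a CCAAT box at 52, and SREBF1 had no match in these bases.

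Over all members, RefSeq promoter windows (250 bases before to 50 after the start) were found for 27 genes, 36 windows in all, and not for SQLE, FDFT1, ACAT2 and FASN. The CCAAT box was in 24 of the 36 windows (66.7%), against 34.6% of 35116 windows of all genes. The exact sterol regulatory element was in 1 of 36, against 1.13% of all windows, and with at most 1 letter changed it was in 15 of 36 (41.7%) against 24.5%. The E-box was in 13.9% of the members' windows against 7.26%, and the GC box GGGCGG in 86.1% against 45%. The letters GNACANNNTGTNC, a form of the glucocorticoid response element, were in none of the 36 windows and in 0.39% of all windows. These matches describe letters only, and nothing about binding was measured.

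Total counts per library lay between 8106036 and 15820806, and CPM below means a count relative to its library total after TMM correction for composition. The mesenchymal and bone genes VIM (664 CPM), COL1A1 (561 CPM), SPARC (267 CPM), RUNX2 (102 CPM) and ALPL (23.3 CPM) were present on average over the 24 libraries. COL1A2 (0 to 8 counts), SP7 (0 to 2 counts) and BGLAP (5 to 18 counts), also bone genes, were at or near 0 in every library. Of other cell types, CDH1 averaged 4.22 CPM, EPCAM 2.01 CPM and PTPRC 0.939 CPM, and the liver genes ALB and APOA1 had at most 5 counts. NR3C1, which includes the transgene, lay between 334 and 1595 CPM in wt, between 1118 and 6273 CPM in SoF and between 1627 and 7658 CPM in Ctrl. These ranges span all times. The means (n = 2) at 0, 1, 2 and 3 h were 688, 1453, 592 and 350 CPM in wt. In SoF they were 2630, 5801, 1863 and 1124 CPM, and in Ctrl 3317, 6625, 2374 and 1696 CPM. These values are new RNA, and the study picked sorted cell fractions to match nuclear GR protein between lines by immunofluorescence. FKBP5, a classical glucocorticoid target, rose from 25.4 ± 3.69 to 219 ± 7.05 CPM in wt, from 23.3 ± 5.57 to 297 ± 1.13 CPM in SoF and from 32.7 ± 1.58 to 171 ± 0.933 CPM in Ctrl between 0 and 3 h (mean ± SD, n = 2).

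The members differed widely in how much of their RNA was made. Per kilobase of exon, SCD, which puts the double bond into saturated fatty acids, was highest (113 CPM per kilobase on average over the 24 libraries), followed by SQLE (62.2), FASN (59.3) and HMGCS1 (56.3). TM7SF2, a sterol reductase, was lowest (3.25), next to ELOVL6 (3.38) and MVK (4.09). The length used here is that of all annotated exon bases of a gene, which can exceed that of its main transcript. Without division by length, the mean ranged from 5.26 CPM for PMVK to 593 CPM for SCD. These values are labelled RNA, and the total amount of each RNA was not measured.

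The question asked first was what the lines shared after 3 h of dexamethasone. In the fit over all 24 libraries (edgeR's quasi-likelihood test, Benjamini-Hochberg adjustment over all genes tested, called at an adjusted p under 0.05), 11 members rose and 5 fell at 3 h against 0 h in the mean of the 3 lines. Of all genes tested, 20.9% rose and 19.3% fell in this comparison, 40.3% together, against 35.5% and 16.1% of the members. The median log2 change of the members was 0.22 against -0.03 for all genes, and 23 of 31 (74.2%) had a positive change against 46.9% of all genes. The fatty acid genes had 5 rising and 0 falling of 7, the steps from squalene to cholesterol 3 rising and 1 falling of 12, the early steps 1 rising and 2 falling of 7, and the regulators and carriers 2 rising and 2 falling of 5. Without the Ctrl 0 h replicate 2 library the count was 9 (6 rose, 3 fell), and without all 3 replicate 2 libraries at 0 h, a setting chosen after seeing the data, it was 5 (NSDHL, ACLY and SCAP rose, SREBF1 and HMGCS1 fell), the other 11 losing their calls.

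**Figure D1:**
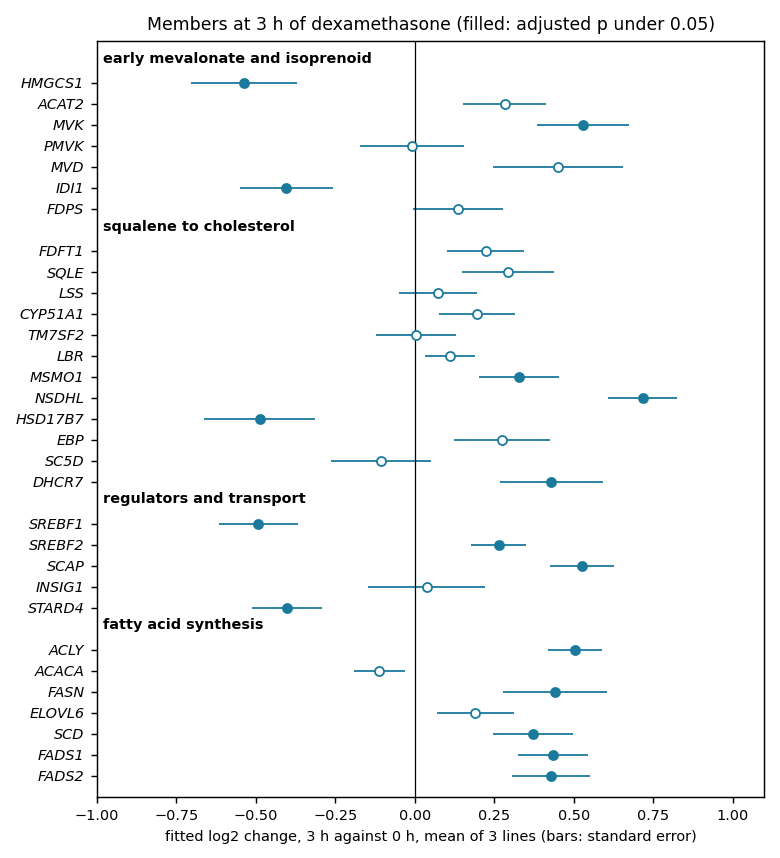
Log2 change at 3 h against 0 h in the mean of the 3 lines for each of the 31 members, grouped by role, with bars of 1 SE and filled points for adjusted p under 0.05. NSDHL (0.72) lies farthest to the right and HMGCS1 (-0.54) farthest to the left, and 5 of the 7 fatty acid genes are filled to the right of 0.

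In the early steps, HMGCS1, which joins acetyl-CoA to acetoacetyl-CoA and opens the mevalonate route, fell. It lay between 324 and 554 CPM at 0 h (median 485) and between 225 and 412 CPM at 3 h (median 296) in 6 libraries each. In SoF the libraries went from 554 and 488 CPM to 412 and 237 CPM, and in Ctrl from 481 and 506 CPM to 375 and 260 CPM, with no overlap in either line. In wt, 356 and 324 CPM at 0 h overlapped 332 and 225 CPM at 3 h. Here and below, overlap within a line compares 2 libraries with 2, and the share of all genes without such overlap was not counted. The mean change over the lines was -0.54 (SE 0.17, adjusted p = 0.0136), and the call was lost without the wt (-0.45, adjusted p = 0.0583), SoF (-0.42, 0.0612) or Ctrl (-0.45, 0.0573) replicate 2 library at 3 h. The call of HMGCS1 was also lost without all 3 replicate 1 libraries at 0 h, a setting chosen after seeing the data. An antisense long noncoding RNA overlaps 37.7% of its exon bases but had at most 7 counts in any library.

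IDI1, the isomerase that makes the active isoprenoid unit, also fell (-0.40, SE 0.15, adjusted p = 0.0325), from a median of 43.1 CPM at 0 h to 31.5 CPM at 3 h, with overlapping libraries. MVK, the kinase that phosphorylates mevalonate, rose by 0.53 (SE 0.14, adjusted p = 0.00556), from a median of 32.1 to 43.8 CPM, and within each line both 3 h libraries were above both 0 h libraries. ACAT2, PMVK, MVD and FDPS, which act before, between and after these enzymes, did not pass the test, with changes of 0.28, -0.01, 0.45 and 0.14. IDI1 lost its call in 6 of the 12 fits that each left out 1 library (-0.28 to -0.39 in those fits), at the weakest without SoF 0 h replicate 1 (adjusted p = 0.136).

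Between squalene and cholesterol, NSDHL changed most clearly. NSDHL, HSD17B7 and MSMO1 work together to strip methyl groups from the sterol ring, and NSDHL is the dehydrogenase among them. Its 6 libraries at 0 h lay between 20.1 and 27.0 CPM (median 24.4) and its 6 libraries at 3 h between 34.6 and 45.8 CPM (median 38.7). The groups did not overlap, which held for 9.89% of all genes tested in the upward direction and 6.76% in the downward direction, and among the members for NSDHL and ACLY upward and SREBF1 downward. The change was 0.72 (SE 0.11, adjusted p = 1.94e-05), and it lay between 0.65 and 0.80 in the 12 fits that left out 1 library each, called in all of them.

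MSMO1, the oxidase of the same demethylation steps, rose by 0.33 (SE 0.13, adjusted p = 0.041), from a median of 119 to 146 CPM. HSD17B7, the keto-reductase, moved the other way. At 0 h its libraries were 42.8 and 40.0 CPM in wt, 52.6 and 52.4 CPM in SoF and 30.4 and 47.7 CPM in Ctrl. At 3 h they were 41.4 and 25.1, 44.7 and 22.7, and 32.1 and 22.3 CPM in the same order, so that only SoF did not overlap. Replicate 2 was the lower library at 3 h in every line. The change was -0.49 (SE 0.18, adjusted p = 0.0301) and was lost without wt 0 h replicate 1 (-0.47, adjusted p = 0.0562), Ctrl 0 h replicate 2 (-0.37, 0.119) or the wt (-0.38, 0.116), SoF (-0.35, 0.121) or Ctrl (-0.40, 0.105) replicate 2 library at 3 h. HSD17B7 has known pseudogene copies, as have SCD and FDPS, and how reads common to such copies were counted is not given in the sources used here. MSMO1 lost its call in 7 of the 12 fits (0.25 to 0.35 in those), with the smallest change without SoF 3 h replicate 1 (0.25, adjusted p = 0.149).

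DHCR7, which carries out the last reduction to cholesterol, rose by 0.43 (SE 0.16, adjusted p = 0.037), from a median of 74.7 to 99.3 CPM with overlap. That call was lost in 7 of the 12 fits, with the smallest change without SoF 3 h replicate 1 (0.29, adjusted p = 0.172). The other 8 genes of these steps did not pass at 3 h against 0 h: FDFT1 (0.22), SQLE (0.29), LSS (0.07), CYP51A1 (0.20), TM7SF2 (0.00), LBR (0.11), EBP (0.27) and SC5D (-0.11). They include the squalene epoxidase SQLE, a rate-limiting step, whose libraries lay between 205 and 298 CPM at 0 h and between 258 and 393 CPM at 3 h.

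Among the regulators, the SREBP genes moved apart. SREBF1 lay between 114 and 189 CPM at 0 h (median 155) and between 101 and 113 CPM at 3 h (median 107), and the libraries did not overlap. In wt its libraries went from 189 and 156 CPM to 108 and 107 CPM, in SoF from 154 and 114 to 111 and 102 CPM, and in Ctrl from 179 and 114 to 101 and 113 CPM. The change was -0.49 (SE 0.12, adjusted p = 0.00312), called in all 12 fits that left out 1 library (-0.59 to -0.36). Replicate 1 was the higher library at 0 h in each line, and without all 3 of these the change was -0.24 (adjusted p = 0.124). SREBF2 rose by 0.26 (SE 0.085, adjusted p = 0.0171), from between 130 and 173 CPM at 0 h (median 159) to between 168 and 201 CPM at 3 h (median 186), and lost its call without SoF 0 h replicate 2, SoF 3 h replicate 1 or Ctrl 0 h replicate 2 (0.22 in each, adjusted p = 0.0615, 0.0704 and 0.0651).

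SCAP, the escort that senses sterol for SREBP, rose by 0.53 (SE 0.10, adjusted p = 0.000239). Its libraries were 31.7 and 28.5 CPM in wt, 25.4 and 20.5 CPM in SoF and 23.2 and 16.7 CPM in Ctrl at 0 h, and 34.5 and 37.6, 37.3 and 37.6, and 29.4 and 32.4 CPM at 3 h. Within each line the groups did not overlap, although wt at 0 h reached above Ctrl at 3 h. The call held in all 12 fits that left out 1 library (0.46 to 0.62). STARD4, a small carrier of cholesterol through the cytosol and itself a target of SREBP, fell by 0.40 (SE 0.11, adjusted p = 0.0057). In wt it went from 106 and 113 CPM to 132 and 88.8 CPM, in SoF from 161 and 157 to 118 and 88.9 CPM, and in Ctrl from 122 and 157 to 100.5 and 83.8 CPM, so that SoF and Ctrl moved beyond their libraries and wt did not.

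INSIG1, the brake on SCAP and itself a known SREBP target, did not pass. It lay between 69.8 and 112 CPM at 0 h and between 62.6 and 120.5 CPM at 3 h, and replicate 1 was far above replicate 2 in wt (120.5 and 62.6 CPM) and SoF (120.2 and 63.3 CPM) at 3 h. Its mean change was 0.04 (SE 0.18, adjusted p = 0.892) with a 95% interval of -0.35 to 0.42, and its sign changed with the library left out (-0.14 to 0.18).

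The fatty acid genes moved mostly upward. ACLY, the enzyme that supplies cytosolic acetyl-CoA to both pathways, lay between 151 and 189 CPM at 0 h (median 166) and between 208 and 268 CPM at 3 h (median 237), without overlap. It rose by 0.50 (SE 0.084, adjusted p = 5.59e-05), between 0.46 and 0.56 in the 12 fits that left out 1 library and called in each. FADS1 and FADS2, the desaturases of polyunsaturated fatty acids, lie on opposite strands of 1 locus on chromosome 11 and share 490 exon bases. FADS1 rose by 0.43 (SE 0.11, adjusted p = 0.00308) and FADS2 by 0.43 (SE 0.12, adjusted p = 0.0079), and both held in all 12 fits that left out 1 library but not without all 3 replicate 2 libraries at 0 h (0.34, adjusted p = 0.053, and 0.36, adjusted p = 0.0668). FADS1 reached 272 CPM in SoF 3 h replicate 1, against 152 to 196 CPM in the other 3 h libraries and 121 to 156 CPM at 0 h.

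FASN, the fatty acid synthase, had a wide gap between replicates at 0 h. At 0 h replicate 1 was above replicate 2 in wt (703 and 441 CPM), SoF (576 and 355 CPM) and Ctrl (588 and 312 CPM). At 3 h its libraries lay between 553 and 788 CPM, so that every 3 h library was above every replicate 2 library at 0 h but not above replicate 1. The change was 0.44 (SE 0.16, adjusted p = 0.0352), not called by DESeq2 (0.43, adjusted p = 0.0797), and 0.12 (adjusted p = 0.589) without all 3 replicate 2 libraries at 0 h. It was lost in 7 of the 12 fits that left out 1 library, lowest without Ctrl 0 h replicate 2 (0.32, adjusted p = 0.123). SCD rose by 0.37 (SE 0.13, adjusted p = 0.0222), from between 456 and 681 CPM (median 507) at 0 h to between 541 and 898 CPM (median 705) at 3 h, and lost its call in 5 of the 12 fits (0.28 to 0.33), lowest without wt 3 h replicate 1 (0.28, adjusted p = 0.0939). ACACA, the carboxylase that commits acetyl-CoA to fat, was between 247 and 306 CPM at 0 h and between 224 and 295 CPM at 3 h, a change of -0.11 (SE 0.080, adjusted p = 0.276, 95% interval -0.28 to 0.05). ELOVL6, which lengthens palmitate, did not pass either (0.19).

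**Figure D2:**
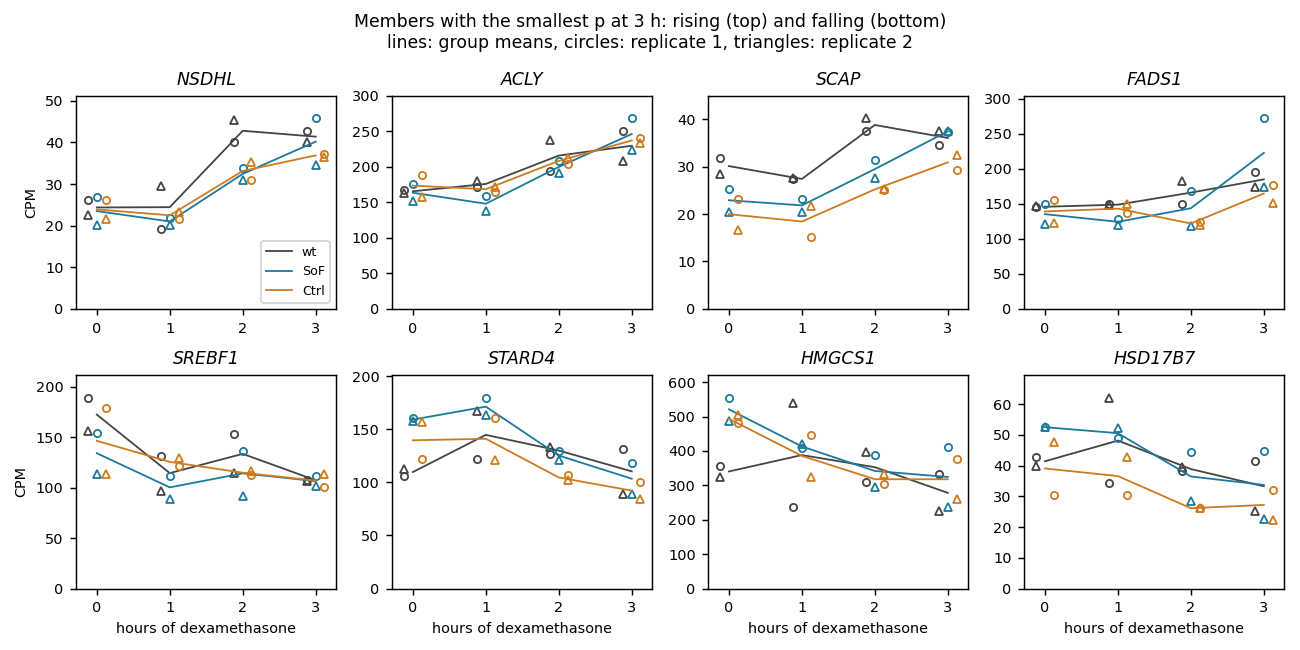
CPM of single libraries against hours of dexamethasone for NSDHL, ACLY, SCAP and FADS1 (upper row) and SREBF1, STARD4, HMGCS1 and HSD17B7 (lower row), with lines through group means, circles for replicate 1 and triangles for replicate 2. NSDHL climbs from 20.1 to 27.0 CPM at 0 h to 34.6 to 45.8 CPM at 3 h in all lines, whereas the triangles of HMGCS1 and HSD17B7 lie below the circles at 3 h.

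The time course showed when these changes appeared. At 1 h against 0 h no member was called in the mean of the lines (edgeR), against 1.28% of all genes. At an unadjusted p under 0.05 there was 1 member, next to 3332 of all 23651 genes. This member was SREBF1 (-0.41, SE 0.12, adjusted p = 0.124). DESeq2 called 1 falling member at 1 h. The 1 h libraries of SREBF1 lay between 89.1 and 132 CPM (median 116), close to its 3 h level, and the 3 h against 1 h change was -0.08. Without SoF 0 h replicate 2 or without Ctrl 0 h replicate 2 the count at 1 h was 1 (falling), without all 3 replicate 2 libraries at 0 h it was 4, and without a low-count filter 3, all falling. With a replicate block the count at 1 h was 1.

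At 2 h against 0 h, 6 members had risen and 0 had fallen, against 16.2% rising and 12.6% falling of all genes (28.8% together). They were DHCR7 (0.63), NSDHL (0.58), TM7SF2 (0.36), SREBF2 (0.35), SCAP (0.35) and ACLY (0.31). NSDHL had a median of 34.6 CPM at 2 h, and every 2 h library was above every 0 h library. The share of all genes without overlap between 2 h and 0 h was not counted. HMGCS1 (-0.40), HSD17B7 (-0.39) and IDI1 (-0.38) did not pass at 2 h. The count at 2 h was 2 (1 rose, 1 fell) without all 3 replicate 2 libraries at 0 h and 11 (6 rose, 5 fell) without a low-count filter. With a replicate block the count at 2 h was also above 6 (given at the end). TM7SF2 was back at 0.00 at 3 h, and FADS1 and FADS2 changed by 0.03 and 0.04 at 2 h against 0.43 each at 3 h.

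Because the replicates at 0 h differed, the 3 h libraries were also compared with the 1 h libraries, which uses no 0 h library but the same 3 h libraries. The 1 h replicates differed too. The members' median replicate 1 minus replicate 2 in log2 CPM was -0.36, 0.18 and -0.10 in wt, SoF and Ctrl. At 0 h it was 0.14, 0.34 and 0.08. In the mean of the lines, 24 of 31 members were lower at 1 h than at 0 h, so most changes from 1 h start from a lower level. In this comparison 16 members rose and 3 fell, 51.6% and 9.68%, against 25% and 25.6% of all genes (50.6% together). The median log2 change was 0.32 against -0.04 for all genes. Among those that rose were 5 that had not passed against 0 h, MVD (0.75), EBP (0.57), ACAT2 (0.42), SQLE (0.36) and FDFT1 (0.32). Another protein-coding gene on the same strand overlaps 36.4% of the exon bases of EBP (mean of 138 counts against 333 for EBP). On the opposite strand, TCP1 overlaps 17.2% of those of ACAT2. NSDHL (0.80), FASN (0.77) and DHCR7 (0.75) had the largest changes. STARD4 (-0.58), HSD17B7 (-0.51) and IDI1 (-0.37) fell, and HMGCS1 (-0.37, adjusted p = 0.0693) did not pass. In 9 members all 6 libraries at 3 h were above all 6 at 1 h (NSDHL, EBP, DHCR7, SREBF2, SCAP, ACLY, FASN, FADS1 and FADS2), and in 0 they were all below, against 14.2% and 10.7% of all genes. With 1 library left out at a time the count stayed between 16 and 19.

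Within single lines fewer members passed, and the 3 times of a line share its 0 h libraries. In wt, 0 members were called at 1 h (0.156% of all genes), NSDHL alone at 2 h (0.81, 4.6% of all genes), and at 3 h NSDHL (0.76) and ACLY (0.47) rose and SREBF1 (-0.68) fell, against 6.6% rising and 4.12% falling of all genes (10.7% together). In SoF, 0 were called at 1 h (0.165%) and 2 h (5.68%), and at 3 h NSDHL (0.77), FADS1 (0.72), SCAP (0.70) and ACLY (0.59) rose and STARD4 (-0.62) fell, against 11.2% and 8.11% (19.3%). In Ctrl, 0 were called at 1 h (0.0465%) and 2 h (7.95%), and at 3 h NSDHL (0.62), SCAP (0.62) and ACLY (0.45) rose and STARD4 (-0.60) fell, against 8.58% and 5.6% (14.2%). By edgeR at an unadjusted p under 0.05, members numbered 2, 1 and 0 at 1 h in wt, SoF and Ctrl. Of all 23651 genes, 2602, 1645 and 423 did so. At 2 h in SoF and Ctrl the members numbered 3 and 8, next to 4715 and 5412 of all genes. DESeq2 called 0 members in these 5 comparisons as well.

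NSDHL and ACLY were thus called at 3 h in each line. These calls per line rest on few libraries. Without the replicate 2 library at 0 h of the line in question, 0 members were called at 3 h in that line. Without the replicate 1 library, 8 were called in SoF and 6 in Ctrl but 1 in wt. The wt count was also 0 without 3 h replicate 1 and 1 without 3 h replicate 2, and the Ctrl count was 0 without either 3 h library. At 2 h the wt count was 0 without 0 h replicate 2 or 2 h replicate 2, and the Ctrl count was 1 without 0 h replicate 1. Without a low-count filter 11 members were called in SoF and 7 in Ctrl at 3 h.

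**Figure D3:**
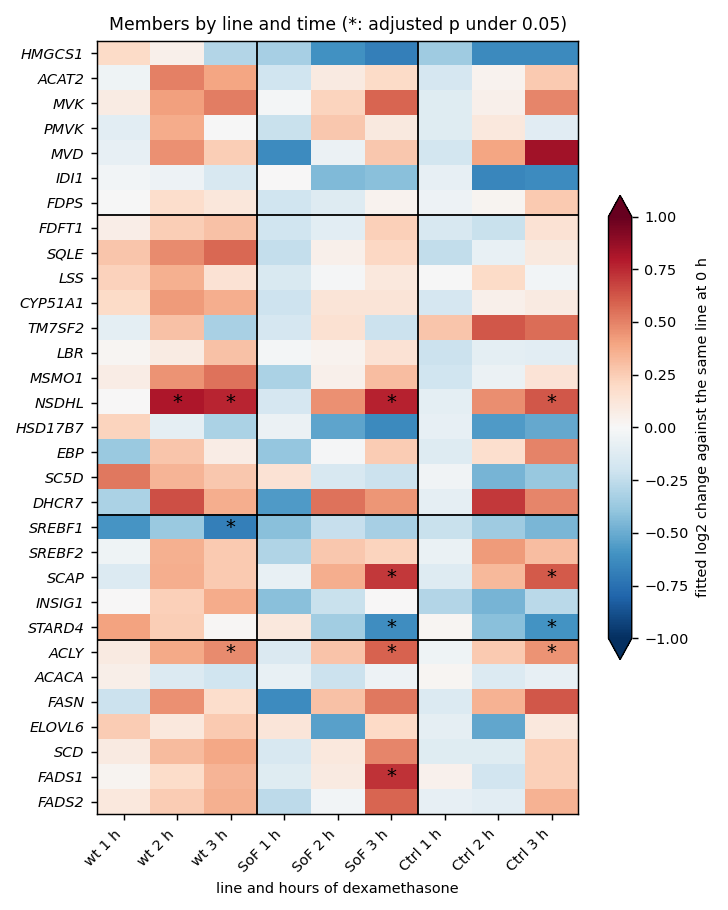
Heat map of log2 changes against 0 h of the same line for the 31 members (rows, by role) at 1, 2 and 3 h in wt, SoF and Ctrl (columns), with a star where the adjusted p was under 0.05. NSDHL and ACLY are starred at 3 h in all 3 lines, and SoF and Ctrl are mostly below 0 at 1 h, with 27 of 31 members negative in each.

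Over all members, 19 of 31 (61.3%) had a positive change at 3 h in all 3 lines and 5 (16.1%) a negative one (HMGCS1, IDI1, HSD17B7, SREBF1 and ACACA), against 31.4% and 34.3% of all genes. The change of STARD4 was 0.01 in wt against -0.62 and -0.60 in SoF and Ctrl, and that of INSIG1 went from 0.37 in wt to 0.01 in SoF and -0.27 in Ctrl. Contrasts that tested directly whether lines responded differently at 3 h called 0 members in SoF against Ctrl (0.0127% of all genes), in SoF against wt (0%) and in Ctrl against wt (0%), by edgeR and by DESeq2. At an unadjusted p under 0.05 in edgeR the members were TM7SF2 in SoF against Ctrl, STARD4 in SoF against wt, and TM7SF2, STARD4 and LBR in Ctrl against wt, next to 671, 558 and 845 of all genes.

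The 95% intervals of these differences were wide against the changes themselves. For NSDHL the SoF response exceeded the Ctrl response by 0.15 (95% interval -0.41 to 0.71). For SCAP the SoF response exceeded that of wt by 0.45 (-0.06 to 0.95), for FADS1 it exceeded that of Ctrl by 0.48 (-0.08 to 1.03), and for STARD4 the SoF minus wt difference was -0.63 (-1.19 to -0.07, unadjusted p = 0.0289 in edgeR).

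The members also rose and fell together between replicates of the same group, which carried the same label. At wt 1 h, 26 of 31 members were higher in replicate 2, with a median difference (replicate 1 minus replicate 2) of -0.36 in log2 CPM. HMGCS1 was 238 and 539 CPM in these 2 libraries. At wt 3 h, 29 of 31 were higher in replicate 1 (median 0.39), and in SoF 29, 26, 30 and 28 of 31 were higher in replicate 1 at 0, 1, 2 and 3 h (medians 0.34, 0.18, 0.43 and 0.51). In Ctrl the medians were smaller (0.08, -0.10, -0.02 and 0.17). Over all genes, the median difference was between -0.02 and 0.02 in every group. In 5 of the 12 groups the gap of the members was larger in size than their median change of 0.22 at 3 h, and the part of these gaps in the results above was not tested beyond the fits that leave libraries out.

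**Figure D4:**
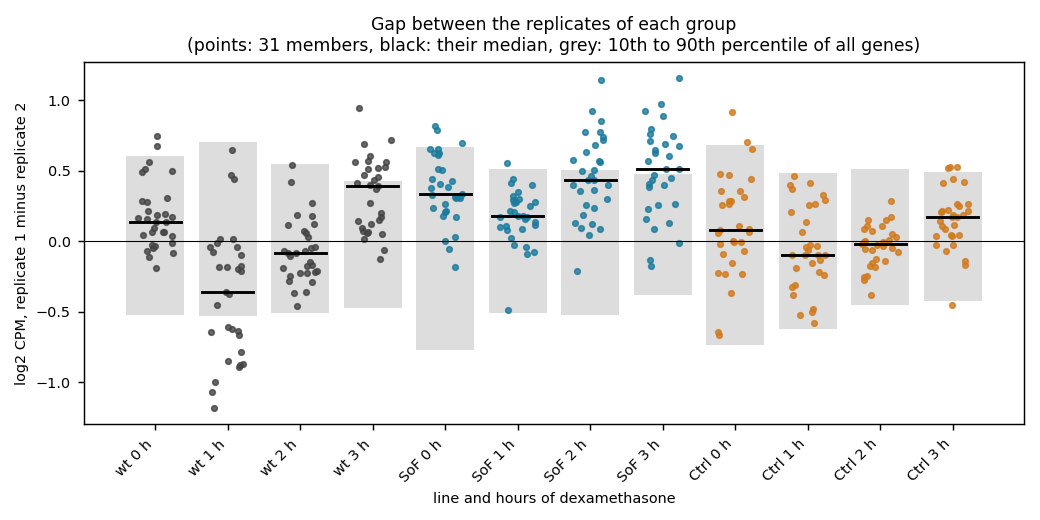
Difference in log2 CPM between replicate 1 and replicate 2 of each of the 12 groups, with a point for each of the 31 members, a black bar for their median and a grey band from the 10th to the 90th percentile of all genes. The members lie mostly above 0 in SoF at all times and in wt at 3 h, and mostly below 0 in wt at 1 h (median -0.36).

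The lines were also compared over all times, with 8 libraries each and treatment time ignored. The study's methods describe this for each mutant against wt, with DESeq2, and not for the mutants against each other, which is given here in addition. CYP51A1, the demethylase that removes a methyl group from lanosterol and the target of azole drugs in fungi, was the only member called. It was 0.40 higher in SoF than in Ctrl (SE 0.11, adjusted p = 0.0483, against 3.61% of all genes called). Against wt, CYP51A1 was 0.28 higher in SoF (adjusted p = 0.12). No member was called in SoF against wt (8.02% of all genes) or in Ctrl against wt (4.77%). In each of these, 3 members had an unadjusted p under 0.05 in edgeR, next to 5308 and 3988 of all 21122 genes. DESeq2 called 0 and 1 members. At 0 h the CYP51A1 libraries were 126 and 110 CPM in wt, 178 and 158 CPM in SoF and 120 and 140 CPM in Ctrl, and SoF was above both at this time. The call was lost in 12 of the 16 fits that left out 1 SoF or Ctrl library (0.35 to 0.41 in those), with the largest adjusted p without Ctrl 0 h replicate 1 (0.38, adjusted p = 0.0986), and also without a low-count filter (0.39, adjusted p = 0.146). A replicate block also removed the call (given at the end).

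With time as a term of the fit, which narrows the spread, 3 members were called in each comparison. In SoF against wt they were CYP51A1 (0.28), LBR (-0.17) and SCAP (-0.26), against 29% of all genes. In Ctrl against wt they were SCAP (-0.50), PMVK (-0.43) and TM7SF2 (-0.33), against 18.8%. In SoF against Ctrl they were HSD17B7 (0.43), CYP51A1 (0.40) and MSMO1 (0.33), against 13.3%. Each share of the members, 9.68%, was below the share of all genes.

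The CYP51A1 level itself is uncertain, since GENCODE annotates 2 other genes on the same strand that share 68.2% and 67.8% of its exon bases. Of the 21 tested genes within 1 Mb of it on either side, a window chosen after its value was seen, 21 were higher in SoF than in Ctrl and 11 were called, with a median difference of 0.51 against 0.00 over all genes. Against wt, 20 of 21 were higher in SoF and 10 were called (median 0.44), while in Ctrl 5 of 21 were higher and 1 was called. The 2 overlapping genes are among the 21, with means of 1626 and 1889 counts against 1746 for CYP51A1. How reads common to them were counted is not given in the sources used here, so these 2 cannot be taken as separate from CYP51A1. The higher CYP51A1 RNA of SoF came with higher RNA of the genes in this window, and the copy number of the region was not measured.

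The pathway extends beyond these genes, and 40 others of sterol and fatty acid synthesis, transport and control were listed, of which 39 were tested (not MLXIPL). At 3 h against 0 h in the mean of the lines 13 of these rose and 7 fell, against the 20.9% and 19.3% of all genes given above. MLXIP, a glucose-sensing factor that acts on lipid and sugar genes, rose by 1.14 (SE 0.11, adjusted p = 4.13e-08), from between 40.0 and 55.7 CPM at 0 h to between 86.6 and 129 CPM at 3 h. ME1, which makes NADPH for fatty acid synthesis, rose by 0.62, and RNF145, a ubiquitin ligase of the sterol-sensing machinery, by 0.54. In these 3 genes no 3 h library overlapped a 0 h library, which held upward for 9.89% of all genes tested. The 3 were picked for a small p in the same comparison, so this adds no separate support.

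The falling genes were led by those of cholesterol export. ABCA1, the pump that loads cholesterol onto apolipoprotein, fell by 1.25 (SE 0.22, adjusted p = 0.000107), from between 33.0 and 46.0 CPM at 0 h to between 14.1 and 21.9 CPM at 3 h. ABCG1, its partner in export, fell by 0.84 (SE 0.16, adjusted p = 0.00026), and MYLIP, a ubiquitin ligase that removes lipoprotein receptors, by 0.70 (SE 0.11, adjusted p = 1.75e-05), from between 126 and 147 CPM to between 69.6 and 89.5 CPM. ACACB, the acetyl-CoA carboxylase found at mitochondria, fell by 0.68 (SE 0.15, adjusted p = 0.00117). The genes that encode LXR, NR1H3 (0.29) and NR1H2 (-0.07), did not pass.

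**Figure D5:**
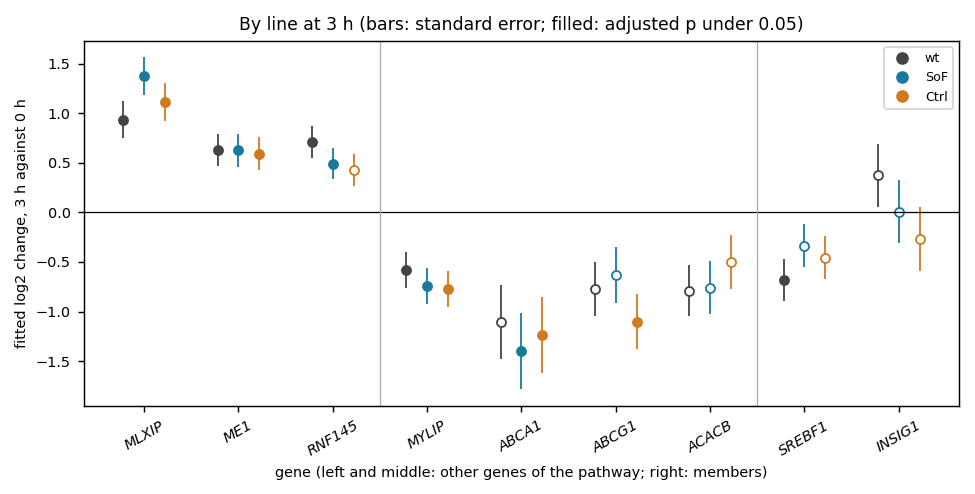
Log2 change at 3 h against 0 h in wt, SoF and Ctrl, with bars of 1 SE, for 7 other genes of the pathway and the members SREBF1 and INSIG1. In each line MLXIP, ME1 and RNF145 lie above 0 and ABCA1, ABCG1, MYLIP, ACACB and SREBF1 below, whereas INSIG1 is 0.37 in wt and -0.27 in Ctrl.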

How the data were processed

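4sU-labelled RNA of 24 libraries (3 lines, 4 time points, 2 libraries per group) was analysed from the deposited table. Per the labels and the study's methods, the authors extracted molecular identifiers with UMI-tools 1.1.2, trimmed reads with Trim Galore 0.6.6, aligned them to hg38 with STAR 2.7.3a, removed duplicate molecules, and counted reads over exons with featureCounts on GENCODE 39. The deposited values are these raw counts per gene, whole numbers without normalization. Only the table's title says that counting was stranded, and antisense overlaps are therefore treated as uncertain.

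Gene symbols and positions came from GENCODE 44 by identifier (99.81% matched). In R 4.3.3, edgeR 4.0.16 and limma 3.58.1 were used on the counts, with TMM scaling, filterByExpr (minimum count 10, total 15) and the quasi-likelihood test, and p-values were adjusted by Benjamini-Hochberg over all 23651 genes kept (21122 in the fit on construct). The threshold for a call was 0.05. Standard errors are the absolute log2 change divided by the square root of F, and intervals use the t distribution with the fit's degrees of freedom. The mean of lines weights the 3 lines equally. Log2 CPM of single libraries used a prior count of 2. The common biological coefficient of variation was 14.2% (24.0% on construct alone). Replicates differed 5.47 to 19.7 times more than counting error (chi-square over its degrees of freedom). Over the genes as a whole, replicate spread rather than depth was therefore the limit on precision. In members with few counts, such as PMVK (34 to 123) and TM7SF2 (67 to 231), counting error adds to it.

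The alternatives were DESeq2 1.42.0 (the tool of the study), its size factors, no low-count filter, a replicate block, time as a term of the construct fit, 0 h libraries alone, leaving out each library, and, added after the data were seen, leaving out all replicate 1 or all replicate 2 libraries at 0 h. The fits were tested on simulated data. Values of single libraries, or the range of a group, are given for HMGCS1, INSIG1, the SREBP genes, SCAP, FASN, ACACA, SCD, the 4 rising and 4 falling members with the smallest p at 3 h, and members called between lines. The members and lists were chosen with earlier results of these data known. Of the other pathway genes, the 4 rising and 4 falling with the smallest p were to be named, and 1 of them is not reported here. Promoter sequences are from RefSeq on GRCh38.p14. Tables and figures were made in Python 3.11.15 with pandas 2.3.3 and matplotlib 3.10.9.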

Additional observations from a re-analysis of the deposited data

Results flagged for a closer look

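In 2 members the 3 h libraries of 1 line were all above its 0 h libraries while those of another line were all below. This compares 2 libraries with 2 in each line, and the share of all genes that do so was not counted. The 2 members are therefore listed without a claim that they stand out. The difference in response was tested for each such pair of lines. TM7SF2, a sterol reductase, went from 10.9 and 12.4 CPM to 10.6 and 9.46 CPM in SoF and from 7.07 and 7.89 CPM to 10.9 and 11.1 CPM in Ctrl. The 3 h response of SoF minus that of Ctrl was -0.77 (SE 0.32, unadjusted p = 0.0225 in edgeR, adjusted p = 1.00), which does not pass the correction over all genes.

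LBR, a reductase of the same step that also anchors chromatin at the nuclear envelope, went from 97.1 and 105 CPM to 126 and 121 CPM in wt, from 91.2 and 94.7 CPM to 96.3 and 109 CPM in SoF, and from 115 and 116 CPM to 105 and 110.2 CPM in Ctrl. Its response in Ctrl minus that in wt was -0.40 (SE 0.19, unadjusted p = 0.0497 in edgeR, adjusted p = 0.982), and in SoF minus Ctrl 0.25 (SE 0.19, unadjusted p = 0.213, adjusted p = 1.00). Neither difference passes the correction.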

How the results depend on the processing

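With 2 libraries per group, the counts of called members depend on single libraries and on the 0 h replicates. Without 1 library at a time, the members called ranged from 9 to 18 at 3 h against 0 h in the mean of the lines, 16 to 19 against 1 h, 5 to 8 at 2 h, 0 to 1 at 1 h, 0 to 1 in wt at 3 h, 0 to 8 in SoF, 0 to 6 in Ctrl, 0 to 1 in wt and Ctrl at 2 h, and 0 to 1 for SoF against Ctrl and Ctrl against wt over all times. The other pathway genes called ranged from 16 to 21. Of the 16 members called at 3 h against 0 h, 8 stayed called in all 12 of these fits (NSDHL, ACLY, SCAP, SREBF1, STARD4, MVK, FADS1 and FADS2) and 3 (NSDHL, ACLY and SCAP) stayed called without either set of 0 h replicates. Without all replicate 2 libraries at 0 h the counts were 4 at 1 h, 2 at 2 h and 5 at 3 h, and INSIG1 changed by -0.087 in place of 0.04, and from -0.14 to 0.18 without single libraries. Without a low-count filter they were 1 and 2 in wt at 1 and 2 h, 2, 2 and 11 in SoF at 1, 2 and 3 h, 3 and 7 in Ctrl at 2 and 3 h, 3 and 11 in the mean of the lines at 1 and 2 h, and 0 for SoF against Ctrl over all times. DESeq2 called 1 member in the mean of the lines at 1 h and 1 in Ctrl against wt over all times. With time as a term, 3 members were called in each comparison of lines, and 0 for SoF against Ctrl with 0 h libraries alone. The cause of these shifts was not tested.

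Replicate numbers did not pair the libraries across all groups. The correlation of same-numbered deviations was over 0.1 in 21 of 66 pairs of groups and under -0.1 in 9. Between lines at 0 h it was 0.39 to 0.57, so same-numbered 0 h libraries shared part of their deviation. The main fit treats the 0 h libraries as separate, and its p-values do not allow for this. With a replicate block, 16 members were called at 3 h, 1 at 1 h and 10 at 2 h in the mean of the lines, and 0 for SoF against Ctrl over all times (CYP51A1 0.40, adjusted p = 0.0538). Other settings moved no count by over 1.5 times.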
